A study of Mus musculus with 4 samples.

Results

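Of the 25827 genes listed, 10 were followed as markers of quiescent satellite cells or of cells returning to quiescence, chosen by symbol from the gene tables of the 4 libraries. They were Calcr (ENSMUSG00000023964), Chodl (ENSMUSG00000022860), Chrdl2 (ENSMUSG00000030732), Vcam1 (ENSMUSG00000027962), Spry1 (ENSMUSG00000037211), Cd34 (ENSMUSG00000016494), Sdc4 (ENSMUSG00000017009), Nppc (ENSMUSG00000026241), Edn3 (ENSMUSG00000027524) and Gpc3 (ENSMUSG00000055653). The rule used their symbols and no measured value, although earlier results of these data were known when they were listed. None was a marker of the cell sort. Spry1 encodes a protein of the cell interior, so as a group they were surface and secreted products plus 1 intracellular inhibitor.

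Satellite cells are the stem cells of skeletal muscle. At rest they carry Pax7 and lie under the basal lamina of the fibre, and injury drives them to divide and then to commit through Myog, after which they fuse. Some cells leave the cycle again and restore the resting pool, and surface receptors, niche signals and secreted peptides of the resting cell are lost on activation and regained on return.

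The cells were sorted by flow cytometry for α7 integrin and against CD45, CD31 and Sca1. They came from tibialis anterior muscles of both legs of 12-week-old mice, on day 6 after injection of cardiotoxin, a snake toxin that kills muscle fibres. The 2 control libraries (Pax7Cre) came from mice with the Pax7Cre driver, and the 2 miR-501KO libraries from Pax7Cre mice with a floxed, X-linked miR-501 (miR-501 fl/Y), so every group carried Pax7Cre. This Cre acts wherever Pax7 is active and is not inducible. Each library pooled 3 mice, and replicates 1 and 2 of both groups came from runs 1 and 2. The deletion itself was not analysed here, since these libraries counted polyadenylated RNA and not mature microRNA.

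Of 16519 barcodes, 10450 had at least 5000 UMIs (unique molecular identifiers, 1 per captured RNA molecule) and 1000 genes. The libraries held 73665012 to 117527749 UMIs, and the kept cells had median depths of 25254 to 34579 UMIs. Only 10 of 10440 distinct barcodes were shared by libraries. Of 20 clusters, 7 (1689 cells) were left out before any test, of which 5 carried mural, macrophage, Schwann, endothelial or fibroblast markers and 2 came almost wholly from miR-501KO replicate 1. This left 8761 myogenic cells, of which the Pax7Cre libraries gave 3168 and 1683 and the miR-501KO libraries 1827 and 2083. The larger cluster from miR-501KO replicate 1 (659 cells) had 7 of 11 markers of committed cells and 5 of 10 macrophage markers raised. With the removal, Myog+ cycling cells of that library fell from 874 to 218. The paper reports a group of committed cells with macrophage markers, sequenced only from the knockout and described in both runs. By staining, it also found cells with both myogenin and CD74 in injured control muscle, though fewer than in the knockout. Whether the removed cells belong to that group was not tested. Results without this removal are given where they differed.

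The microRNA that the miR-501KO mice lack has 2 mature forms, shown with the seed (bases 2 to 8) in capitals to identify the deletion behind the genotype comparison. They lie on the minus strand of chromosome X (RefSeq, GRCm38.p6), at chrX:7241270-7241291 for the 3p form and chrX:7241307-7241328 for the 5p form.
mmu-miR-501-3p: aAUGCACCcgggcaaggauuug
mmu-miR-501-5p: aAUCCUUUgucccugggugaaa

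States were set by genes other than the 10 markers. Every cell was thinned at random to 5000 UMIs, and a cell with 1 or more UMIs of Pax7 or Myog was called Pax7+ or Myog+. A cell with 5 or more UMIs of 26 cell cycle genes was called cycling. Pax7+ resting cells (440 to 592 per library) were Pax7+, Myog negative and not cycling. Cycling cells (385 to 856) were Myog negative, Myog+ cycling cells (108 to 265) had both signs, and Myog+ resting cells (341 to 819) had left the cycle and were committed to differentiate. The cycle gate was a cut through a range, since 958 cells (10.9%) held 3 to 6 cycle UMIs. Levels are given as CPM, the UMIs of a gene per 1000000 UMIs, in the summed unthinned cells of a library and state.

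All 10 markers had their highest mean level in Pax7+ resting cells. Against these cells, 9 of 10 were lower in cycling cells and 10 of 10 in both Myog+ states, by edgeR's quasi-likelihood test over 13081 genes (adjusted p under 0.05, library as a block, 4 libraries). The shares of all genes called lower were 33%, 31.3% and 31.7% in cycling, Myog+ cycling and Myog+ resting cells. The markers' median log2 fold changes were -1.24, -1.74 and -2.54 in that order, against -0.02, 0.01 and 0.03 over all genes tested. The 4 libraries of a state did not overlap those of Pax7+ resting cells for 9, 8 and 10 markers, against 28.4%, 31.1% and 31.8% of all genes. All 10 passed the filter on low counts, but a gene could pass it by its level in Pax7+ resting cells alone. For markers with little RNA in the other states, such as Calcr, being tested thus rested on the group where they were high. A call of lower was favoured for these markers and is no independent support. In summed cells, fewer cells with a marker and less of it per cell cannot be told apart by these levels alone.

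**Figure D1:**
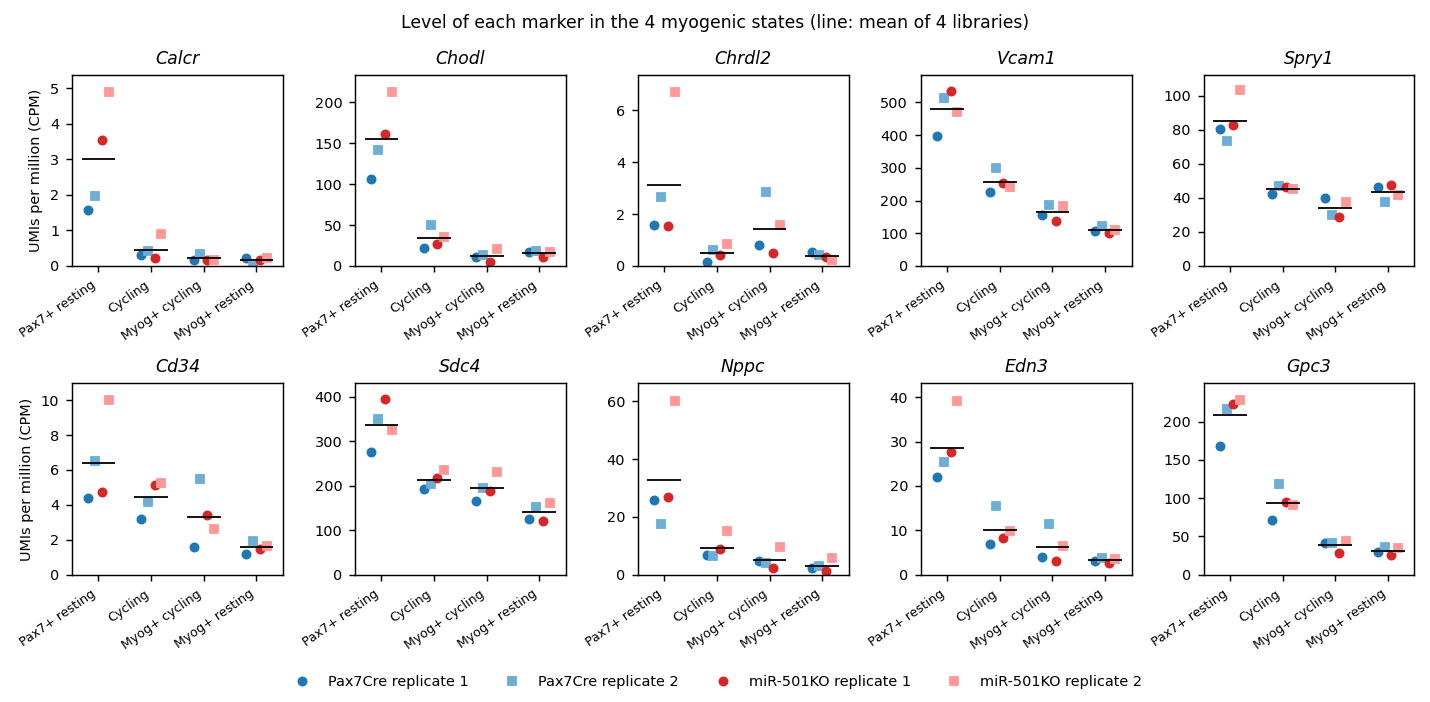
Level of each of the 10 markers in CPM (linear axis from 0, scaled per gene) in the 4 states; points are the 4 libraries and lines their mean. Pax7+ resting cells have the highest mean for every marker, from 3.00 CPM for Calcr to 479 CPM for Vcam1, and for Spry1 the other 3 states lie close together.

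Among the receptors, Calcr, the calcitonin receptor whose signal keeps satellite cells out of the cycle, was among the markers with the largest fitted decreases in each of the 3 states, within 1 SE of Chrdl2 in cycling and of Chodl in Myog+ cycling cells. It stood at 1.57 and 1.98 CPM in the Pax7Cre libraries and 3.55 and 4.89 CPM in the miR-501KO libraries in Pax7+ resting cells. In cycling cells the 4 libraries held 0.215 to 0.894 CPM, below every Pax7+ resting value. The log2 fold changes were -2.53 ± 0.29 (SE) in cycling, -3.52 ± 0.48 in Myog+ cycling and -3.80 ± 0.39 in Myog+ resting cells. These folds rested on little RNA, with 24 to 65 Calcr UMIs per library in Pax7+ resting cells, 1 or 2 in Myog+ cycling cells and 0 to 6 in Myog+ resting cells.

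Vcam1, an adhesion molecule that binds α4 integrins and is used to sort satellite cells, fell in steps. Its libraries ranged from 397 to 536 CPM in Pax7+ resting cells, 226 to 298 in cycling, 137 to 185 in Myog+ cycling and 102 to 123 in Myog+ resting cells. No library of 1 state overlapped another state. The log2 fold changes were -0.80 ± 0.06, -1.38 ± 0.06 and -1.92 ± 0.06. Vcam1 was found in 33.1% to 36.8% of thinned Myog+ resting cells per library and in 79.2% to 85.7% of thinned Pax7+ resting cells. In macrophage-like cells its share was 28.0% (95% exact binomial interval 23.4 to 33.1). Whether that share is Vcam1 RNA of the macrophages or of other cells was not tested, so it is no blank for Vcam1.

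Sdc4 and Gpc3 are heparan sulphate proteoglycans of the surface that present growth factors, Sdc4 through a membrane span and Gpc3 through a lipid anchor. Sdc4 ranged from 276 to 396 CPM in Pax7+ resting cells and from 120 to 162 CPM in Myog+ resting cells. Its loss was modest (log2 fold change -0.56 ± 0.07, -0.64 ± 0.07 and -1.09 ± 0.07), and its ranges in cycling (192 to 235 CPM) and Myog+ cycling cells (167 to 230 CPM) overlapped. Gpc3 ranged from 168 to 228 CPM in Pax7+ resting, 70.9 to 118 in cycling, 27.8 to 44.4 in Myog+ cycling and 26.1 to 35.8 in Myog+ resting cells. It was lower by -1.06 ± 0.09, -2.24 ± 0.11 and -2.54 ± 0.10 on the log2 scale. In each library the Pax7+ resting level was 5.65 to 8.56 times that of Myog+ resting cells for Gpc3 and 2.02 to 3.30 times for Sdc4. Against cycling cells the folds met, at 1.83 to 2.52 for Gpc3 and 1.39 to 1.83 for Sdc4.

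Chodl encodes chondrolectin, a membrane protein with a C-type lectin domain. Its Pax7+ resting levels were 106 and 142 CPM in the Pax7Cre libraries and 161 and 212 CPM in the miR-501KO libraries. The ranges were 21.9 to 50.2 CPM in cycling, 5.0 to 21.0 in Myog+ cycling and 10.3 to 18.4 in Myog+ resting cells, with the latter 2 overlapping. The log2 fold changes were -2.13 ± 0.15, -3.44 ± 0.21 and -3.06 ± 0.17. By signed size these ranked 30th, 17th and 16th from the bottom among the 13081 genes.

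Cd34, a sialomucin of stem cells and vessels, was the 1 marker not called lower in cycling cells. It measured 4.38 to 10.0 CPM in Pax7+ resting and 3.19 to 5.24 CPM in cycling cells, and the groups overlapped (log2 fold change -0.41 ± 0.18, adjusted p = 0.0526 by edgeR). Without miR-501KO replicate 1 the value was -0.64 and passed (adjusted p = 0.00698). It was lower in Myog+ cycling (-0.84 ± 0.24) and Myog+ resting cells (-1.81 ± 0.23, 1.21 to 1.91 CPM), and the former missed the threshold without miR-501KO replicate 2 (-0.57, adjusted p = 0.0635). Endothelial markers were near 0 in the cells tested, with the 8 genes summing to 3.01 to 6.18 CPM over states and libraries. With no cluster removed, the cycling value turned to 0.81 (adjusted p = 0.0195 by edgeR). The 7 clusters restored by this included an endothelial cluster at 892 CPM and a fibroblast cluster at 76.1 CPM of Cd34, and the part of each was not tested.

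Among the secreted products, Nppc encodes C-type natriuretic peptide, which signals through the receptor Npr2, and Edn3 encodes endothelin 3. Nppc measured 25.9, 17.5, 26.9 and 60.1 CPM in Pax7+ resting cells of Pax7Cre replicates 1 and 2 and miR-501KO replicates 1 and 2. It was at 6.47 to 15.2 CPM in cycling, 2.41 to 9.54 in Myog+ cycling and 1.23 to 5.90 in Myog+ resting cells. The log2 fold changes were -1.67 ± 0.12, -2.44 ± 0.17 and -3.19 ± 0.16. Edn3 took nearly the same course, from 22.1 to 39.3 CPM in Pax7+ resting cells to 2.71 to 3.69 CPM in Myog+ resting cells, with log2 fold changes of -1.42 ± 0.15, -2.10 ± 0.21 and -2.92 ± 0.19.

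Chrdl2, a secreted antagonist of bone morphogenetic proteins, was the uneven member. It measured 1.57, 2.64, 1.55 and 6.69 CPM in Pax7+ resting cells in the same library order and was lower in cycling (-2.51 ± 0.35) and Myog+ resting cells (-2.55 ± 0.40). In Myog+ cycling cells its 4 values spanned 0.517 to 2.84 CPM, overlapping the Pax7+ resting range (-0.91 ± 0.39, adjusted p = 0.0433 by edgeR). That call was lost without miR-501KO replicate 1 (-0.90, adjusted p = 0.0744) or replicate 2 (-0.45), and without the small cluster described below (-0.24).

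Spry1, an inhibitor of growth factor signalling inside the cell that satellite cells need to return to rest, took another course. It ranged from 73.1 to 103 CPM in Pax7+ resting, 42.1 to 47.0 in cycling, 28.4 to 40.1 in Myog+ cycling and 37.5 to 47.7 CPM in Myog+ resting cells. The log2 fold changes were -0.80 ± 0.08, -1.14 ± 0.10 and -0.78 ± 0.08. Spry1 was thus as low in cycling cells as in committed resting cells, whose ranges overlapped. The other 9 markers had a lower mean in Myog+ resting than in cycling cells. For Chrdl2, however, the fitted changes in cycling (-2.51 ± 0.35) and Myog+ resting cells (-2.55 ± 0.40) were nearly equal.

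**Figure D2:**
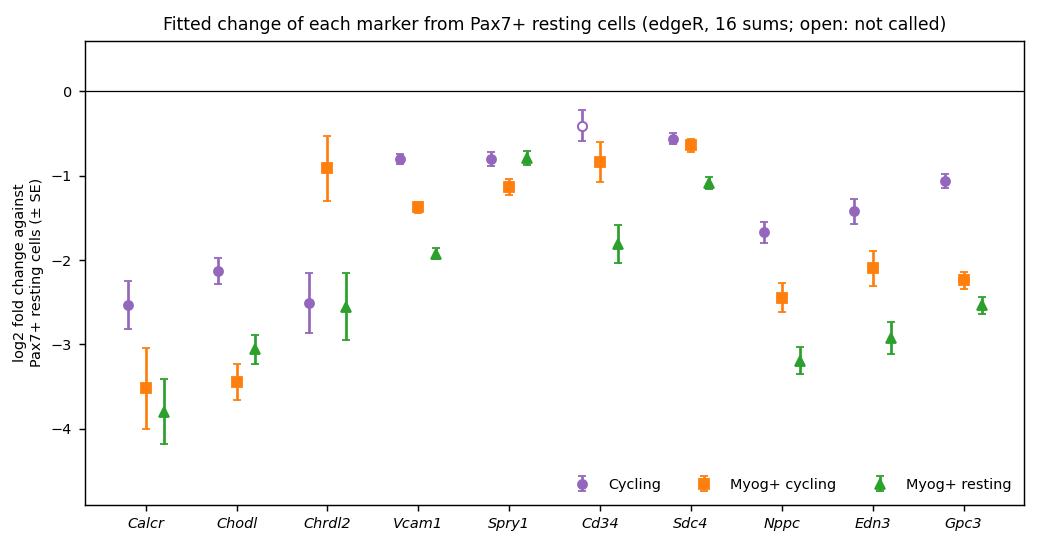
Fitted log2 fold change of each marker in cycling (circles), Myog+ cycling (squares) and Myog+ resting cells (triangles) against Pax7+ resting cells, with bars of 1 SE from the edgeR fit over 16 sums; the open circle was not called. Calcr, Chodl, Chrdl2, Nppc, Edn3 and Gpc3 reach below -2.5 in Myog+ resting cells, while Spry1 and Sdc4 stay above -1.2 in all 3 states.

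Shares of cells gave the same direction at equal depth. In cells thinned to 5000 UMIs, Chodl was found in 28.9% to 44.7% of Pax7+ resting cells per library, Gpc3 in 46.5% to 52.9%, Edn3 in 11.7% to 18.6% and Nppc in 5.23% to 14.7%. Macrophage-like cells, which should lack these genes, served as background (346 cells, median 18772 UMIs before thinning). There, Chodl was found in 2.89% (95% exact binomial interval 1.39 to 5.25), Gpc3 in 3.76% (2.02 to 6.34), Edn3 in 0.578% (0.0701 to 2.07) and Nppc in 0 of 346 cells. A count of 0 allows a share of up to 0.867% (3 counts of 346), and the exact interval reaches 1.06%. For Sdc4 the background share was 63.6% (58.3 to 68.7), close to the 59.6% to 72.2% of Pax7+ resting cells, so its detection did not separate these cell types. Calcr and Chrdl2 were found in 0.507% to 3.86% and 1.07% to 3.68% of thinned Pax7+ resting cells, and each in 0 of the 346 background cells, so the lowest Calcr share lay within what a count of 0 allows. In unthinned cells the mean Calcr share was 5.56% and that of Chodl 52.9%. The intervals cover counting error only.

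Markers of other lineages were read beside these results. The fibroblast list summed to 1266 to 1523 CPM in Pax7+ resting cells and 382 to 457 CPM in Myog+ resting cells. Col3a1 made up most of it (974 to 1220 CPM in Pax7+ resting cells), followed by Gsn at 252 to 280 CPM against 93.8 to 108 CPM in Myog+ resting cells. Dpt (25.8 to 48.5 against 2.80 to 6.13 CPM) and Ly6a (6.39 to 7.42 against 1.13 to 2.39 CPM) were also above their Myog+ resting ranges. Dcn stood at 2.55 to 8.95 CPM, and Pdgfra, Mfap5 and Lum at 0.196 to 0.541, 0.301 to 0.734 and 0 to 1.40 CPM in Pax7+ resting cells. The 12 stress and immediate early genes summed to 3499 to 5969 CPM in Pax7+ resting cells and 1816 to 2222 CPM in Myog+ resting cells, highest in miR-501KO replicate 2. Median depth was 22726.5 to 28887.5 UMIs in Pax7+ resting cells and 38179.5 to 47446 in cycling cells. Their part in the state differences was not tested.

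The partners of the markers did not all follow them. Of 51 listed ligands, receptors and relatives, 38 could be tested, and 22, 18 and 22 were called lower and 9, 7 and 5 higher in cycling, Myog+ cycling and Myog+ resting cells. Of all genes, 33.7%, 35.3% and 36.4% were called higher in these states. For Calcr, its collagen V ligands Col5a1 (-1.66) and Col5a3 (-2.34) and the accessory protein Ramp2 (-0.75) were lower in Myog+ resting cells, and Ramp1 was higher (1.96). For Vcam1 the direction turned: Itga4, the α chain of its receptor, was higher in all 3 states (1.03, 2.22 and 1.86) as Vcam1 fell. For Chrdl2, the bone morphogenetic proteins Bmp4 and Bmp6 were lower in Myog+ resting cells (-2.39 and -3.59) and its relative Chrd was higher (2.84). For Spry1, Fgf2 (-1.74) had the largest decrease in Myog+ resting cells. Npr2, the receptor of the Nppc peptide, was lower in all 3 states (-1.02, -1.29 and -0.42), so ligand and receptor were both highest in Pax7+ resting cells. For Sdc4, the relative Sdc2 was lower by -0.49, -1.14 and -1.5. For Gpc3, the relative Gpc1 was higher in all 3 states (0.21, 0.61 and 0.43), opposite to Gpc3. The relative Gpc6 had mean levels of 14.2 CPM in Pax7+ resting, 22.9 in cycling and 19.6 in Myog+ cycling cells. In Myog+ resting cells its mean was lower, at 6.50 CPM, as for Gpc3. For Edn3, Ece1, an enzyme that matures endothelins, was lower in Myog+ resting cells (-1.03). For Cd34, the sialomucin Podxl was lower (-1.26, -2.85 and -2.18).

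Other satellite cell genes gave the scale. Of 14 further surface genes, 7, 7 and 9 were called lower and 0, 1 and 2 higher in cycling, Myog+ cycling and Myog+ resting cells, with medians of -0.19, -0.29 and -0.37. Tek (-2.25), Egfr (-2.08) and Cav1 (-1.73) had the largest decreases in Myog+ resting cells, and Cd82 (0.63) and Ncam1 (0.30) were higher. Itga7, part of the integrin used in the sort, differed by 0.00 to -0.10 and was not called in any state. Of 16 transcription factor, Notch and cycle-exit genes, 13, 14 and 12 were called lower and 0, 1 and 2 higher. Pax7, which set the gate, is among them and its loss (-2.66 in Myog+ resting cells) is no finding. Of the 12 stress and immediate early genes 8, 10 and 12 were called lower and 1, 0 and 0 higher.

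Over the 16 sums of library and state, the genes that followed each marker most closely were found among 7928 genes of at least 10 CPM by Pearson correlation of log2 CPM. These sums share libraries and states, so the values are a description. Chodl followed Itih5 (r = 0.991), Gpc3 and Vcam1 both followed Bcl2 (0.991 and 0.987), Edn3 followed Ubn1 (0.976) and Spry1 followed Stx5a (0.958). Sdc4 followed Ets2 (0.947), Calcr followed Gnao1 (0.934), Nppc followed Dusp1 (0.933) and Cd34 followed Cxcl1 (0.905). Chrdl2 had the weakest closest partner, Tamalin (0.809).

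Promoter windows of 250 bases before the gene start were found for 8 markers in 9 windows (RefSeq, GRCm38.p6), with none for Chrdl2 or Vcam1. The core letters bound by RBPJ, the Notch effector, TGGGAA on either strand, were found in 1 of 9 windows, that of Chodl, against 21.6% of all 32851 windows. The AP-1 letters TGANTCA were found in 0 of 9 windows against 6.75% of all. The E-box letters CANNTG were found in 4 of 9 against 66.2%. The Chodl window, shown because it holds the match, is chr16:78930698-78930947 on the plus strand, 5′ to 3′ with the match in capitals.
Chodl promoter: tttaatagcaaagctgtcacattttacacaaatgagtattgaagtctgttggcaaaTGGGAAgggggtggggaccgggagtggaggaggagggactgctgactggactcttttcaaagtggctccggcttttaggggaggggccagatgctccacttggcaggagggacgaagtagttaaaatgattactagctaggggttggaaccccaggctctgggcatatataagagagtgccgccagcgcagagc

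Within the Pax7+ resting gate the markers were spread unevenly. Clusters made without the 10 markers split the gate into groups that are described here without a test. The groups led by Inhbb and Dio2 (786 cells in the gate) and by Iigp1 and Gbp2 (784 cells) held most of it. Chodl stood at 210.5 and 166 CPM and Gpc3 at 292 and 247 CPM in these 2 groups. Nppc differed more, at 67.8 CPM in the Inhbb and Dio2 group and 12.5 CPM in the Iigp1 and Gbp2 group. Sdc4 leaned the other way, at 231 and 478 CPM.

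A further group of 296 Pax7+ resting cells, led by Mmp9 and Spp1, had almost none of several markers. It held Chodl at 1.5 CPM, Nppc at 1.41 CPM, Edn3 at 0.415 CPM and Calcr at 0.0831 CPM. Gpc3 was at 22.8 CPM, while Vcam1 and Sdc4 stood at 316 and 210.0 CPM. Pax7, which the gate required of every cell, stood at 141 CPM, against 257 CPM in the Inhbb and Dio2 group and 239 CPM in the Iigp1 and Gbp2 group. Each of the 4 libraries showed this, with Chodl between 1.12 and 2.22 CPM and Vcam1 between 270 and 359 CPM. The gate of Pax7 RNA with cell cycle RNA below the cut therefore covered cells with and cells nearly without Chodl, Nppc and Edn3.

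**Figure D3:**
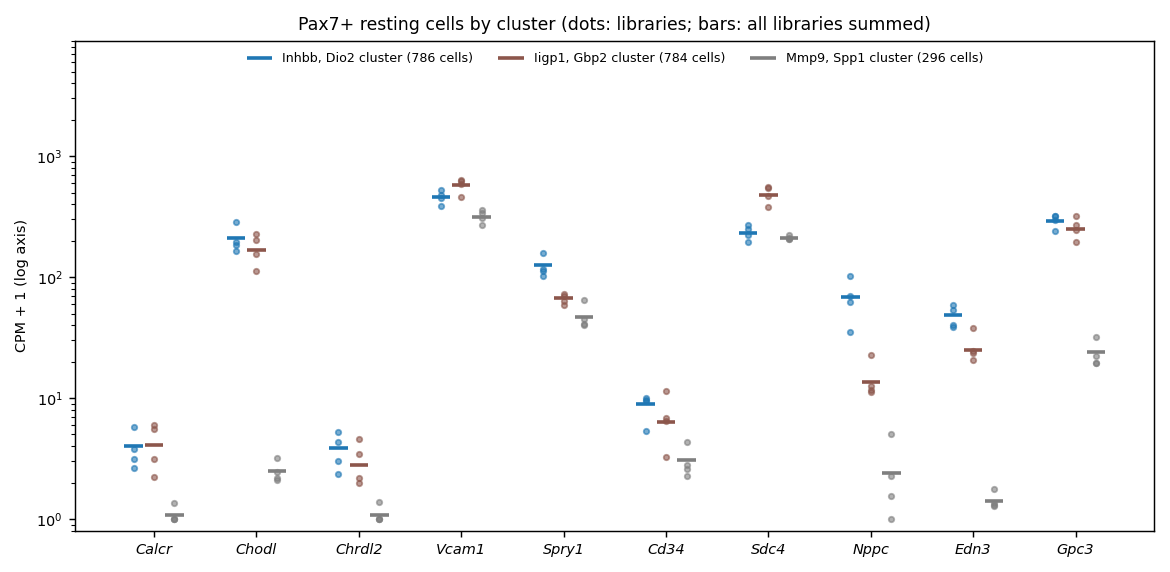
Level of each marker (CPM + 1, log axis) in 3 clusters of Pax7+ resting cells; dots are libraries and bars the sum over libraries, with the number of cells in the key. In the sums the Mmp9 and Spp1 cluster is lowest for all 10 markers. In Pax7Cre replicate 1, Sdc4 stands at 207 CPM there against 196 CPM in the Inhbb and Dio2 cluster. Nppc stands at 67.8 CPM in the Inhbb and Dio2 cluster against 12.5 CPM in the Iigp1 and Gbp2 cluster.

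One small cluster of 87 myogenic cells, of which 63 lay in the Pax7+ resting gate, held the highest level of 8 markers among the 20 clusters and is described without a test. It held Calcr at 54.2 CPM, Chodl at 950 CPM, Chrdl2 at 98.0 CPM, Vcam1 at 882 CPM, Spry1 at 176 CPM, Sdc4 at 1491 CPM, Nppc at 204 CPM and Edn3 at 144 CPM. The next highest clusters held Calcr at 2.41 CPM, Chodl at 168 CPM, Chrdl2 at 10.8 CPM and Sdc4 at 495 CPM. Cd34 ranked 2nd at 77.2 CPM, and Gpc3 went against the others at 33.4 CPM and rank 15. Within the gate these cells held Chodl at 1062 CPM, Sdc4 at 1506 CPM and Nppc at 218 CPM, above the groups described so far, and Gpc3 at 40.4 CPM, below the 2 main groups. The Pax7Cre libraries gave it 6 and 13 cells and the miR-501KO libraries 17 and 51 cells, or 0.189%, 0.772%, 0.930% and 2.45% of myogenic cells. Its median depth was 10296 UMIs against 26127 in other Pax7+ resting cells, and its stress and immediate early genes summed to 12765 CPM against 4266 CPM. Its myofibre list summed to 1077 against 268 CPM, its fibroblast list to 2842 against 1416 CPM and its mural list to 339 against 1105 CPM. The part of depth, stress genes and RNA of other cells in its marker levels was not tested, and the Pax7+ resting sums include these cells.

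Within the gate these 63 cells were 3.08% of the cells and 1.26% of the UMIs, but they held 43.2% of the Chrdl2 UMIs, 23.5% of Calcr, 15.4% of Cd34, 8.69% of Chodl and 8.47% of Nppc. They held 0.245% of Gpc3. In miR-501KO replicate 2 they held 59.6% of the Chrdl2 UMIs. Without that cluster, 9, 9 and 10 markers were called lower in the 3 states, with Calcr at -2.21, -3.22 and -3.66 and Chrdl2 at -1.80, -0.24 and -1.91.

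Pairs of markers were then counted in the same thinned Pax7+ resting cells, outside that cluster and within each library. Chodl and Edn3 were found together 1.81 to 2.09 times as often as the product of their shares, over 179 cells with both, and Chodl and Nppc 1.77 to 2.02 times as often, over 118 cells. Chodl with Gpc3 (1.36 to 1.57), Nppc with Gpc3 (1.29 to 1.62) and Edn3 with Gpc3 (1.30 to 1.46) also lay above 1 in each of the 4 libraries. Vcam1 with Sdc4 lay at 0.996 to 1.04 and Vcam1 with Nppc at 0.829 to 0.961. A ratio cannot exceed 1 divided by the larger of the 2 shares. Vcam1 was found in most of these cells, so its pairs could not reach the ratios of the Chodl pairs. These ratios are descriptions of cells of 4 libraries and carry no test.

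**Figure D4:**
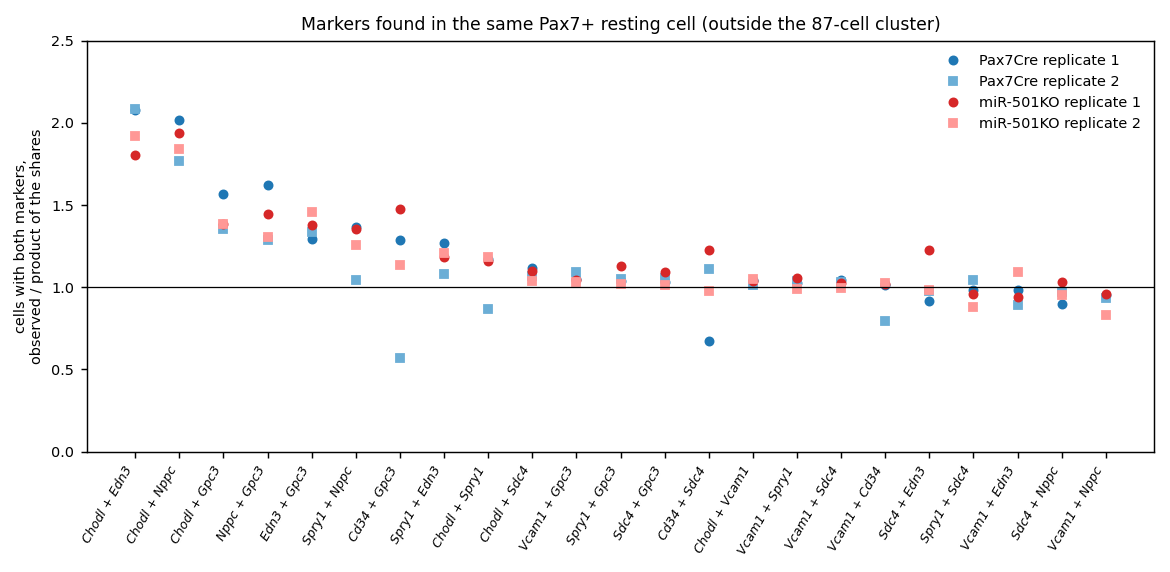
Number of thinned Pax7+ resting cells with both markers of a pair, divided by the number expected from the product of the 2 shares, for 23 pairs with at least 3 expected cells in each library; points are libraries and the line marks 1. Pairs of Chodl with Edn3 or Nppc lie near 2. Pairs with Vcam1 lie near 1 and could not lie far above it, since most cells held Vcam1.

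The genotype comparison asked whether loss of miR-501 changed the markers. In all myogenic cells 0 of 14881 genes (0%) were called by edgeR with 2 libraries per group, 360 had an unadjusted p under 0.05, and DESeq2 called 7. In Pax7+ resting cells 9 of 12641 genes (0.0712%) were called. None of the 10 markers was among them in either set of cells. In Pax7+ resting cells Nppc was called with no filter on low counts, where 0.375% of genes were called, and with another thinning seed, where 0.436% were. The median log2 fold change of the markers was 0.29 in all myogenic and 0.42 in Pax7+ resting cells, against 0.00 over all genes in both.

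The labels pair the libraries by run, and with the run as a block 58 genes (0.39%) were called in all myogenic cells and 47 (0.372%) in Pax7+ resting cells. Calcr and Nppc were then called in all myogenic cells, and Nppc in Pax7+ resting cells. Both miR-501KO libraries lay above both Pax7Cre libraries for 16.7% of all genes in all myogenic and 20.4% in Pax7+ resting cells. This held for Calcr, Nppc, Sdc4 and Spry1 in all myogenic cells and for Calcr, Chodl, Edn3, Gpc3, Nppc and Spry1 in Pax7+ resting cells. In all myogenic cells Calcr stood at 0.496 and 0.744 CPM in the Pax7Cre libraries and at 1.22 and 1.76 CPM in the miR-501KO libraries. It was 2.46 times as high in run 1 and 2.36 times in run 2, and the groups did not overlap (log2 fold change 1.24 ± 0.32, adjusted p = 1.0, and 1.22 with adjusted p = 0.0162 in the blocked edgeR fit). The blocked call was lost without the 87-cell cluster (1.0, adjusted p = 0.227). Without Pax7Cre replicate 2, Calcr was called in the unblocked fit (1.51, adjusted p = 0.0421 by edgeR).

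Nppc stood at 9.03, 8.67, 11.4 and 25.4 CPM in the same order, and the groups did not overlap. Its ratio was 1.26 in run 1 and 2.93 in run 2 (log2 fold change 1.02 ± 0.31, and 0.89 with adjusted p = 9.12e-05 in the blocked edgeR fit). In Pax7+ resting cells the ratio was 1.04 in run 1 and 3.44 in run 2 (0.95 ± 0.26, adjusted p = 0.274, and 0.86 with adjusted p = 0.00650 in the blocked edgeR fit). The size of the difference thus came from run 2, and without miR-501KO replicate 2 it was 0.26 in all myogenic and 0.19 in Pax7+ resting cells, neither called. Without Pax7Cre replicate 1, Nppc was called in the unblocked fits (1.08 and 1.30), and without Pax7Cre replicate 2 in all myogenic cells (0.96). Without the 87-cell cluster the blocked values were 0.86 (adjusted p = 2.3e-04) and 0.77 (adjusted p = 0.0409). Stress and immediate early genes were also highest in miR-501KO replicate 2, at 5969 CPM against 3499 to 4206 CPM in the other libraries of Pax7+ resting cells, and their part was not tested.

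For Chodl the ratio in Pax7+ resting cells was 1.52 in run 1 and 1.5 in run 2, and the groups did not overlap (0.54 ± 0.17, adjusted p = 0.445 by edgeR and 0.602 with the block). Edn3 (0.44 ± 0.17), Chrdl2 (0.94 ± 0.46), Cd34 (0.39 ± 0.30), Spry1 (0.22 ± 0.15), Gpc3 (0.17 ± 0.15), Sdc4 (0.14 ± 0.15) and Vcam1 (0.08 ± 0.15) had smaller or less certain differences there, none called. Vcam1 and Sdc4 were above Pax7Cre in run 1 and below it in run 2, and Chrdl2 the other way round. In Pax7+ resting cells 7 of 10 ratios were above 1 in both runs, as were those of 27.8% of all genes. Without miR-501KO replicate 1, 5 markers (Calcr, Chodl, Chrdl2, Nppc and Edn3) were called higher in Pax7+ resting cells by edgeR, as were 0.583% of all genes. Without miR-501KO replicate 2 none was, and Chrdl2 (-0.54) and Cd34 (-0.31) changed sign. With 2 libraries per group, an exact permutation test of 1 marker cannot give a two-sided p below 0.333.

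**Figure D5:**
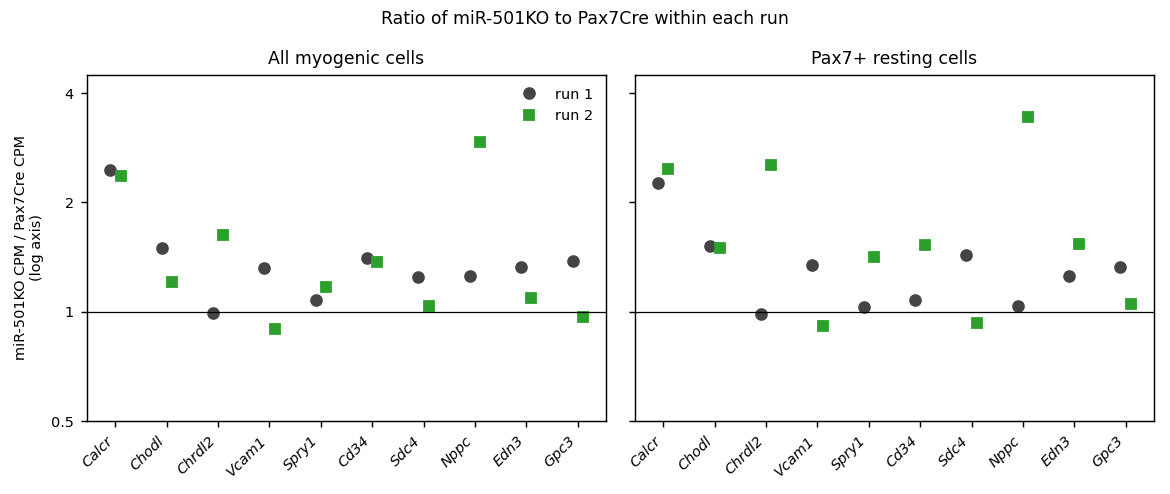
Ratio of the miR-501KO to the Pax7Cre library within run 1 (circles) and run 2 (squares) for each marker, log axis, in all myogenic cells (left) and Pax7+ resting cells (right). Calcr lies above 2 in both runs, while Nppc is near 1 in run 1 of Pax7+ resting cells and at 3.44 in run 2.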

How the data were processed

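Single-cell RNA was measured by droplet sequencing with the 10x Genomics 3′ chemistry. The authors deposited raw UMI counts per gene and barcode, made with Cell Ranger 6.0.2 per the file headers on build GRCm39 per the submitters' processing notes, with no normalization. The 10 markers and all gene lists were chosen with earlier results of these data known.

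A barcode was kept as a cell from 5000 UMIs and 1000 genes upwards. Clusters came from 1991 variable genes without the markers (30 principal components, 15 neighbours, Leiden resolution 0.5, scanpy 1.11.5). A cluster was removed if at least 3 markers of a non-myogenic class, and a share of at least 0.5 of them, were raised. Raised meant 1.5 times the other cells, in 10% of its cells. A cluster was also removed if over 90% of it came from 1 library. Scrublet called 20 cells (0.191%) as doublets, too few to have worked, so none was removed, and an alternative removed the 5% with the highest score in each library.

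UMIs were summed per library and state (16 sums) or per library, and tested in edgeR 4.0.16 (filterByExpr, TMM, quasi-likelihood) with R 4.3.3 and Benjamini-Hochberg adjustment over all genes. The tests were also run on simulated data, and the outcome is not given here. The libraries were the replicates. They were pools of mice from 2 runs. Between the replicates of either group, counts differed by more than sampling noise alone, with a chi-square per degree of freedom of 12.9 to 73.7. The numbers pair the libraries because the labels give the run, and the run 1 minus run 2 differences correlated across genes between genotypes at -0.064 in all myogenic and -0.12 in Pax7+ resting cells. Alternatives were DESeq2 1.42.0, scaling by RLE, keeping genes of low counts, the run as a block, at most 10% mitochondrial UMIs, a minimum of 10000 UMIs, other gates, another seed, no cluster removed and leaving out each library. RLE moved the median of all genes by at most 0.033 (log2). All markers were named. Of the listed partners and other genes, at most 3 per list and direction among those called were named, by the largest change. The genes leading a cluster of 87 cells are not reported here.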

Additional observations from a re-analysis of the deposited data

How the results depend on the processing

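Of the 480 marker fold changes between states recomputed under 16 alternatives, 463 kept their direction and their side of the threshold. Each of the 3 counts of genes called between states stayed within 1.5 times its value. Cd34 in cycling cells changed sign once, to 0.81 with no cluster removed. It passed the threshold as lower with RLE scaling, no filter on low counts, the highest Scrublet scores removed, gates at 2 UMIs, another thinning seed or the further clusters removed. In Myog+ cycling cells Cd34 missed the threshold with no cluster removed. Chrdl2 in Myog+ cycling cells missed the threshold with DESeq2, a minimum of 10000 UMIs, a cycle gate at 10 UMIs or no cluster removed.

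Genotype counts moved more. In all myogenic cells, 7 genes were called with DESeq2, and with the run as a replicate block 58 genes and 2 markers. In Pax7+ resting cells, 67 genes and 1 marker were called with no filter on low counts, 47 genes and 1 marker with the replicate block, 2 genes with gates at 2 UMIs, and 55 genes and 1 marker with another thinning seed. Without the 87-cell cluster the replicate block gave 49 genes and 1 marker in all myogenic cells, and 29 genes and 1 marker in Pax7+ resting cells. That cluster was identified after seeing the data, as was the removal of 4 further shallow or uneven clusters, which moved no count of genes by over 1.5 times. The largest of the 4 (506 cells) had a median of 28.4% mitochondrial UMIs. Without these 4, the Myog+ cycling cells of miR-501KO replicate 1 fell from 218 to 82. Leaving out each library in turn gave 0 to 102 genes and 0 to 2 markers in all myogenic cells, and 16 to 156 genes and 0 to 5 markers in Pax7+ resting cells. These fits assume that the lone library of an arm varies like the other group. The markers called in this way were Calcr, Chodl, Chrdl2, Nppc and Edn3, each higher in miR-501KO. The correlation of run differences between the genotypes was -0.12 in Pax7+ resting cells, and the crossed numbers as the block gave 1 gene in all myogenic cells and 71 genes with 1 marker in Pax7+ resting cells.

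Signs of fold changes that were not called turned in these cases. In all myogenic cells Vcam1 was -0.012 with no cluster removed, and Chrdl2 was -0.036 without the 87-cell cluster and -0.092 with the replicate block as well. Leaving out each library in turn, the values in all myogenic cells ran from -0.58 to 1.09 for Chrdl2, -0.10 to 0.24 for Vcam1, -0.075 to 0.54 for Edn3 and -0.11 to 0.41 for Gpc3, and in Pax7+ resting cells from -0.54 to 1.66 for Chrdl2, -0.065 to 0.25 for Vcam1 and -0.31 to 0.87 for Cd34. Negative values came without Pax7Cre replicate 1 for Vcam1, Edn3 and Gpc3, and without miR-501KO replicate 2 for Chrdl2, Cd34 and Edn3. The cause was not tested for any of these. Depth limits Calcr and Chrdl2 most, with 1 to 17 UMIs per library in Myog+ cycling cells.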

Other observations

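Cells in no gate (378 to 636 per library) held neither Pax7 nor Myog UMIs and fewer than 5 cycle UMIs after thinning. These cells lay between the other states for most markers. They held Chodl at 60.8 to 97.8 CPM, Gpc3 at 111 to 147 CPM and Vcam1 at 351 to 421 CPM in the 4 libraries, below every Pax7+ resting value for Chodl and Gpc3. Some markers were also present outside the myogenic lineage, in the clusters left out of the tests. Of the 10 markers, 8 were highest in the 87-cell cluster and Gpc3 and Cd34 were not. Gpc3 was highest of all 20 clusters in the Schwann cluster (339 CPM), where Sdc4 stood at 490 CPM. Cd34 was highest in the endothelial cluster (892 CPM), Spry1 stood at 111 CPM in the mural cluster, and Vcam1 and Sdc4 at 156 and 331 CPM in the macrophage cluster. Calcr stood at 0 to 0.662 CPM in the 5 clusters left out for mural, macrophage, Schwann, endothelial or fibroblast markers.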
